A study of Mus musculus with 10 samples.

Results

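The late neutrophil granule and calprotectin genes followed here are 10 of the 23152 genes measured: Camp, Ngp, S100a8, S100a9, Ltf, Lcn2, Chi3l3, Retnlg, Mmp8 and Fcnb. They were taken by symbol, and they were chosen by their measured levels, since several peaked in 1 of the sorted groups, the CD127+ lymphoid-primed multipotent progenitors (LMPPs). Their levels in that group are therefore given as a description without a test, and only comparisons that leave that group out were tested. All 10 were measured, and no filter on low values was applied to them.

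The 4 kinds of progenitor had been sorted from the bone marrow of adult C57BL/6 mice, and no genotype or treatment is given beyond the strain. Ly6D+ and Ly6D- common lymphoid progenitors (CLPs) had 2 arrays each and were sorted as lineage-negative cells low for cKit and Sca-1 and high for Flt3 and CD127, the interleukin-7 receptor chain. CD127+ and CD127- LMPPs had 3 arrays each and were lineage-negative and high for cKit, Sca-1 and Flt3. The LMPP arrays and the CLP arrays carry separate runs of sample numbers in the series. Any batch that followed this split cannot be told apart from the difference between LMPPs and CLPs. No source used here gives the sorting purity, or says whether the arrays of a group came from separate animals, sorts or pools, so a p-value reflects only the spread among these arrays, which may be technical. Il7r, which encodes CD127, averaged 9.64, 9.31 and 9.10 log2 in Ly6D+ CLPs, Ly6D- CLPs and CD127+ LMPPs, against 4.32 in CD127- LMPPs. Ly6d averaged 11.33 log2 in Ly6D+ CLPs against 5.88 in Ly6D- CLPs, and 8.67 in CD127+ LMPPs against 4.76 in CD127- LMPPs. Kit, which encodes cKit, averaged 7.05, 7.62, 8.33 and 8.70 log2 in Ly6D+ CLPs, Ly6D- CLPs, CD127+ LMPPs and CD127- LMPPs. In the same order, Flt3 averaged 10.08, 10.25, 10.17 and 9.82, and Ly6a, which encodes Sca-1, averaged 6.30, 5.51, 7.02 and 5.82. Ly6a did not follow the Sca-1 gates throughout: CD127- LMPPs, sorted as high, averaged under Ly6D+ CLPs, sorted as low, with overlapping arrays.

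Neutrophil precursors fill their granules in sequence. Primary granules, with myeloperoxidase and serine proteases, are made first, at the promyelocyte stage; specific granules, with lactoferrin, cathelicidin and lipocalin 2, follow at the myelocyte stage, and gelatinase granules later still. S100a8 and S100a9 encode the 2 subunits of calprotectin, a calcium- and zinc-binding complex abundant in the cytosol of neutrophils and monocytes. In mice the transcription factor C/EBP-epsilon is required for expression of specific granule genes, C/EBP-alpha acts earlier in granulocyte commitment, and PU.1 is required for early myeloid development.

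The DNA just before the start sites is shown for 6 of the genes, so that promoters of genes with like array patterns can be read beside that of Mmp8, whose pattern differed. Each sequence holds the 200 bases before the RefSeq start site in mouse build GRCm38.p6, written 5′ to 3′ on the gene's own strand and ending next to the start site. Capitals mark matches to TTGCNNAA, a form of the C/EBP motif, and AGGAAGT, a form of the PU.1 (ETS) motif, each searched on both strands, and to TATAAA, the TATA box, searched on the gene's strand. No match overlapped another.
Camp, chr9:109849457-109849656, minus strand: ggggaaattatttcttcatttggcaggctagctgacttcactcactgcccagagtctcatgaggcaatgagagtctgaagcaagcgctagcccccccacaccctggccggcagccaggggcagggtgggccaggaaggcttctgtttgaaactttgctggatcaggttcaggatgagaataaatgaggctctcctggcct
Ngp, chr9:110419608-110419807, plus strand: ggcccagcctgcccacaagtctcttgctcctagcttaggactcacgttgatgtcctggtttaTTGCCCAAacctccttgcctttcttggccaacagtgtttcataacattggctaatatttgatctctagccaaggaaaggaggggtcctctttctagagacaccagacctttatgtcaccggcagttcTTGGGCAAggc
S100a8, chr3:90668871-90669070, plus strand: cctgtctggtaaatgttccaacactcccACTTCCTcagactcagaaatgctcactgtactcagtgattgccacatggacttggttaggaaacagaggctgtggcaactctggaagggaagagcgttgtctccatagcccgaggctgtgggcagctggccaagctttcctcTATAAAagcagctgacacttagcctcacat
Ltf, chr9:111019092-111019291, plus strand: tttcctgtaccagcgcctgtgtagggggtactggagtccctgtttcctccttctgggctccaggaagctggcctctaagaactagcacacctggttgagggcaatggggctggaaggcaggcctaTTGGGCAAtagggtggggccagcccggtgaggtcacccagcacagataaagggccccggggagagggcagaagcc
Mmp8, chr9:7558229-7558428, plus strand: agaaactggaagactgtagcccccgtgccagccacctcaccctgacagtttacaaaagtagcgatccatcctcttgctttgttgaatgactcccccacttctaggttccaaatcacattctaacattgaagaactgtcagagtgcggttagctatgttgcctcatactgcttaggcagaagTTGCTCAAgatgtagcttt
Fcnb, chr2:28084879-28085078, minus strand: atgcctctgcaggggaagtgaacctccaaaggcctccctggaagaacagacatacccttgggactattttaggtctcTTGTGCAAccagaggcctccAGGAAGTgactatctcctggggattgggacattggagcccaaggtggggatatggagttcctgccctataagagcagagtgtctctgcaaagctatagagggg

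All 10 genes matched an entry of the promoter table, Chi3l3 under its current symbol Chil3. The C/EBP letters stood in 4 of the 10 windows, those of Ngp, Ltf, Mmp8 and Fcnb, and in 7.47% of all 32851 windows of the same length. Ngp held them from position -138 and again from -11 before the start site, Ltf from -75, Mmp8 from -19 and Fcnb from -123. The PU.1 letters stood in 3 of the 10, S100a8, Chi3l3 and Fcnb, against 6.34% of all windows, and the TATA letters in S100a8 alone, from position -30, against 6.27%. Camp, with the largest difference between the LMPP groups, held none of the 3 motifs in this window. A match describes letters only; binding was not measured. On the chromosomes, S100a8 and S100a9 were neighbours on chromosome 3 with 0 protein-coding genes between them, and Camp, Ngp and Ltf lay on chromosome 9 with 8 protein-coding genes between Camp and Ngp and 20 between Ngp and Ltf.

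Across the 4 groups, 9 of the 10 genes were highest in CD127+ LMPPs, with each of the 3 arrays of that group above each of the 7 others. Mmp8 was the exception. Over all genes, 337 of 23152, or 1.46%, had all CD127+ LMPP arrays above all others; since the genes were chosen for this pattern, the count describes the choice. The 10 genes differed by a median of 2.30 log2 between CD127+ and CD127- LMPPs, beside -0.01 over all genes, and by -1.88 log2 between CLPs and CD127+ LMPPs, beside -0.0008 over all genes. In bulk samples, fewer cells of a type and less RNA per cell cannot be told apart. Levels below are deposited log2 signals, averaged over a gene's probe sets, and are not comparable between genes. A level of 4.43 log2, the 95th percentile of 1388 sensory receptor genes, served as the low-signal limit, and where the dimmer group lay at or under it a fold is given as "at least".

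**Figure D1:**
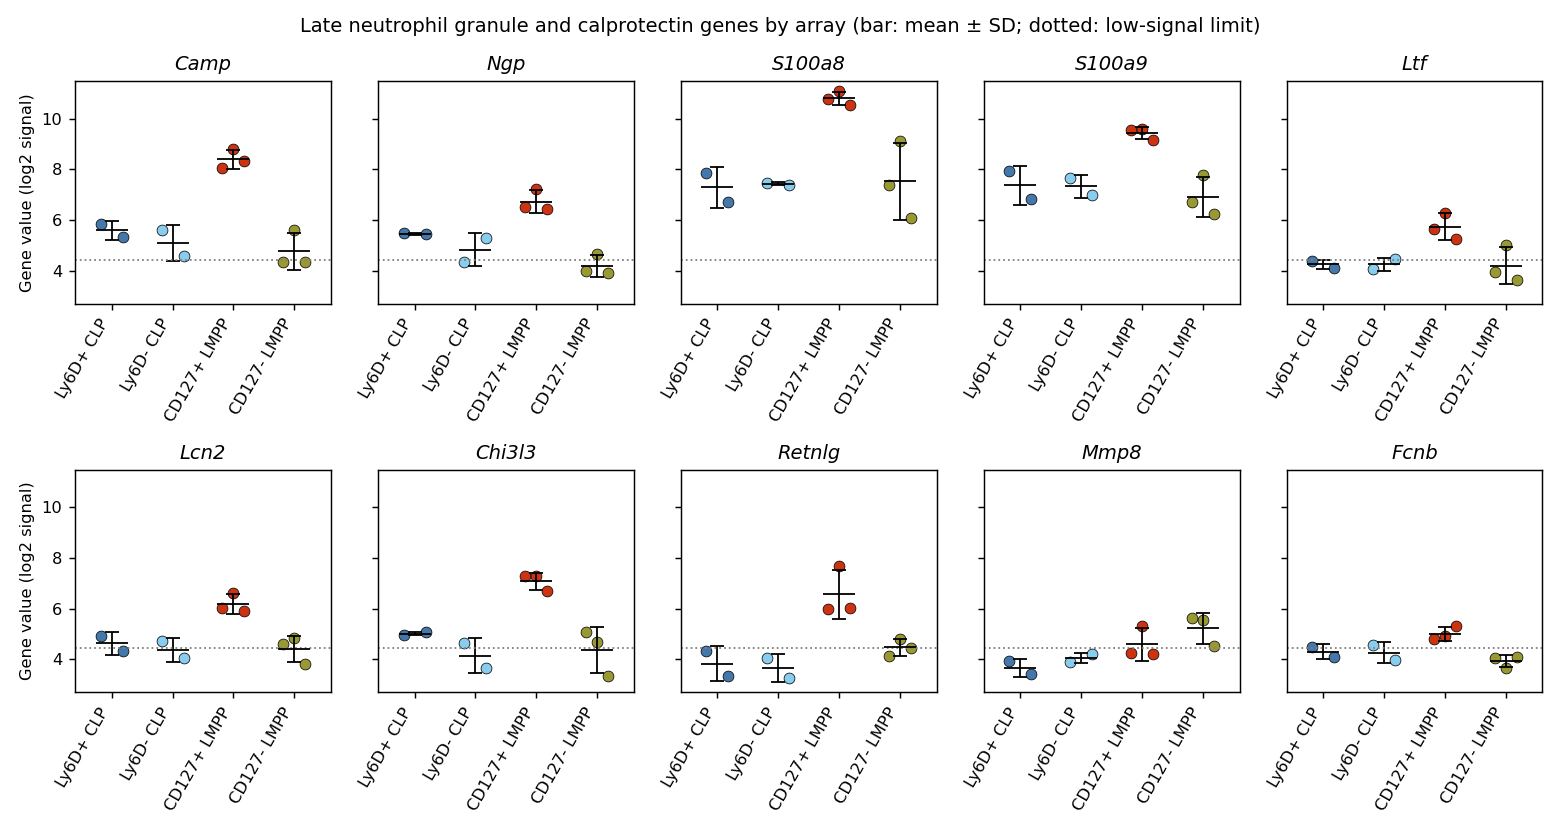
Log2 signal (y axis) of each of the 10 genes in every array, 1 panel per gene, with Ly6D+ CLPs, Ly6D- CLPs, CD127+ LMPPs and CD127- LMPPs along the x axis. Points are arrays (n = 2, 2, 3 and 3), bars are group means ± SD, and the dotted line is the low-signal limit of 4.43 log2; in every panel but that of Mmp8 the 3 CD127+ LMPP points lie above the 7 others.

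Camp and Ngp encode related granule proteins with a cathelin-like domain; Camp is the precursor of the mouse cathelicidin peptide, an antimicrobial of specific granules. Camp had log2 signals of 5.85 and 5.32 in Ly6D+ CLPs, 5.59 and 4.59 in Ly6D- CLPs, 8.04, 8.81 and 8.31 in CD127+ LMPPs and 4.34, 5.61 and 4.32 in CD127- LMPPs. The lowest CD127+ LMPP array, at 8.04, was far above the highest array elsewhere, at 5.85, while the other 3 groups overlapped. Camp was 12.4-fold higher in CD127+ than in CD127- LMPPs (3.63 log2, SE 0.37) and 8.28-fold lower in CLPs than in CD127+ LMPPs. Ngp had log2 signals of 5.49 and 5.43 in Ly6D+ CLPs, 4.36 and 5.29 in Ly6D- CLPs, 6.50, 7.23 and 6.44 in CD127+ LMPPs and 3.97, 4.67 and 3.92 in CD127- LMPPs. Here the second level was Ly6D+ CLPs, whose arrays lay above those of both Ly6D- CLPs and CD127- LMPPs. Ngp was at least 4.89-fold higher in CD127+ than in CD127- LMPPs (2.54 log2, SE 0.29) and 3.0-fold lower in CLPs than in CD127+ LMPPs.

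Both calprotectin subunits had the same order of CD127+ LMPPs over the other 3 groups, which overlapped. S100a8 had log2 signals of 7.86 and 6.70 in Ly6D+ CLPs, 7.46 and 7.38 in Ly6D- CLPs, 10.77, 11.08 and 10.55 in CD127+ LMPPs and 7.37, 9.11 and 6.08 in CD127- LMPPs. The CD127- LMPP arrays spread widely, from 6.08 to 9.11, and array 2 of that group was above every CLP array. S100a8 was 9.71-fold higher in CD127+ than in CD127- LMPPs (3.28 log2, SE 0.59) and 10.9-fold lower in CLPs than in CD127+ LMPPs. The difference between the LMPP groups was 4.08 log2 without array 2 of CD127- LMPPs and 2.56 log2 without array 3. S100a9 had log2 signals of 7.92 and 6.83 in Ly6D+ CLPs, 7.65 and 7.0 in Ly6D- CLPs, 9.55, 9.60 and 9.15 in CD127+ LMPPs and 6.72, 7.79 and 6.23 in CD127- LMPPs. It was 5.73-fold higher in CD127+ than in CD127- LMPPs (2.52 log2, SE 0.38) and 4.24-fold lower in CLPs, set against CD127+ LMPPs. The S100 list held 16 other genes, among them S100pbp, which is named for binding an S100 protein and is not itself an S100 gene. Of these 16, 0 passed in CD127+ against CD127- LMPPs (limma, 1 at an unadjusted p under 0.05). The widest difference was that of S100a1 (-0.68 log2, adjusted p = 0.18). In CLPs against CD127+ LMPPs, 3 of the 16 fell.

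Ltf and Lcn2 encode granule proteins that deprive microbes of iron, lactoferrin by binding iron itself and lipocalin 2 by binding bacterial siderophores. Ltf had log2 signals of 4.37 and 4.12 in Ly6D+ CLPs, 4.08 and 4.44 in Ly6D- CLPs, 5.66, 6.29 and 5.24 in CD127+ LMPPs and 3.94, 5.03 and 3.63 in CD127- LMPPs. The mean of each group other than CD127+ LMPPs was at or under the low-signal limit, and array 2 of CD127- LMPPs, at 5.03, came closest to the CD127+ LMPP arrays. Ltf was at least 2.45-fold higher in CD127+ than in CD127- LMPPs (1.53 log2, SE 0.34). Lcn2 had log2 signals of 4.94 and 4.32 in Ly6D+ CLPs, 4.71 and 4.03 in Ly6D- CLPs, 6.01, 6.62 and 5.92 in CD127+ LMPPs and 4.59, 4.83 and 3.82 in CD127- LMPPs. The 7 arrays outside CD127+ LMPPs overlapped between groups, the highest being 4.94. Lcn2 was at least 3.37-fold higher in CD127+ than in CD127- LMPPs (1.77 log2, SE 0.30).

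Chi3l3 encodes a chitinase-like secreted lectin, also known as Ym1, made by mouse neutrophil precursors and by alternatively activated macrophages. It had log2 signals of 4.97 and 5.06 in Ly6D+ CLPs, 4.63 and 3.67 in Ly6D- CLPs, 7.29, 7.27 and 6.69 in CD127+ LMPPs and 5.06, 4.69 and 3.36 in CD127- LMPPs. The lowest CD127+ LMPP array was at 6.69 and the highest other array at 5.06. Chi3l3 was at least 6.27-fold higher in CD127+ than in CD127- LMPPs (2.71 log2, SE 0.39), and with only its brightest probe set the difference was 0.48 log2. Chi3l4 is a close paralogue of Chi3l3, and whether their probe sets read each other's RNA was not tested. Retnlg encodes resistin-like gamma, a secreted protein of the resistin family found in mouse neutrophils. Its log2 signals were 4.32 and 3.33 in Ly6D+ CLPs, 4.06 and 3.26 in Ly6D- CLPs, 5.97, 7.68 and 6.04 in CD127+ LMPPs and 4.14, 4.82 and 4.46 in CD127- LMPPs. Array 2 of CD127+ LMPPs stood apart from the other two of its group, and every CLP array was under the low-signal limit. Retnlg was 4.26-fold higher in CD127+ than in CD127- LMPPs (2.09 log2, SE 0.44) and at least 4.38-fold lower in CLPs than in CD127+ LMPPs.

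Fcnb encodes ficolin B, a pattern-recognition lectin of the complement lectin pathway made by mouse myeloid cells. Its log2 signals were 4.50 and 4.09 in Ly6D+ CLPs, 4.55 and 3.96 in Ly6D- CLPs, 4.78, 4.93 and 5.31 in CD127+ LMPPs and 4.06, 3.65 and 4.08 in CD127- LMPPs. The gap was narrow, with the lowest CD127+ LMPP array at 4.78 and the highest other array at 4.55. Fcnb was at least 1.49-fold higher in CD127+ than in CD127- LMPPs (1.08 log2, SE 0.21). Mmp8, the neutrophil collagenase, was the gene that did not share the pattern. Its log2 signals were 3.92 and 3.42 in Ly6D+ CLPs, 3.90 and 4.19 in Ly6D- CLPs, 4.24, 5.33 and 4.20 in CD127+ LMPPs and 5.62, 5.54 and 4.51 in CD127- LMPPs. The CD127+ and CD127- LMPP arrays overlapped, with the higher mean in CD127- LMPPs (-0.64 log2, SE 0.35), and the CLP arrays all lay lower, though only just, the highest at 4.19 beside the lowest LMPP array at 4.20.

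The arrays of a group also differed, and the same array was often the highest for most of the 10 genes. Array 2 was the highest of the 3 CD127+ LMPP arrays for 8 of the 10 genes and the highest of the 3 CD127- LMPP arrays for 7, while array 3 of CD127- LMPPs was the lowest of its group for 8. Array 1 of Ly6D+ CLPs was the higher of its pair for 9 of the 10 genes. The mean over the 10 genes was 5.41 and 4.86 log2 in Ly6D+ CLPs, 5.10 and 4.78 in Ly6D- CLPs, 6.88, 7.48 and 6.79 in CD127+ LMPPs and 4.98, 5.57 and 4.44 in CD127- LMPPs. Primary granule genes were ordered otherwise among the CD127- LMPP arrays: the mean of that list was 6.65 and 6.69 log2 in Ly6D+ CLPs, 6.92 and 7.18 in Ly6D- CLPs, 8.06, 8.0 and 7.93 in CD127+ LMPPs and 8.73, 8.21 and 8.08 in CD127- LMPPs. With only the brightest probe set of each gene, 6 of the 10 genes had all CD127+ LMPP arrays above all others. With each array left out in turn the count was 9, but leaving out an array cannot lower such a count.

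**Figure D2:**
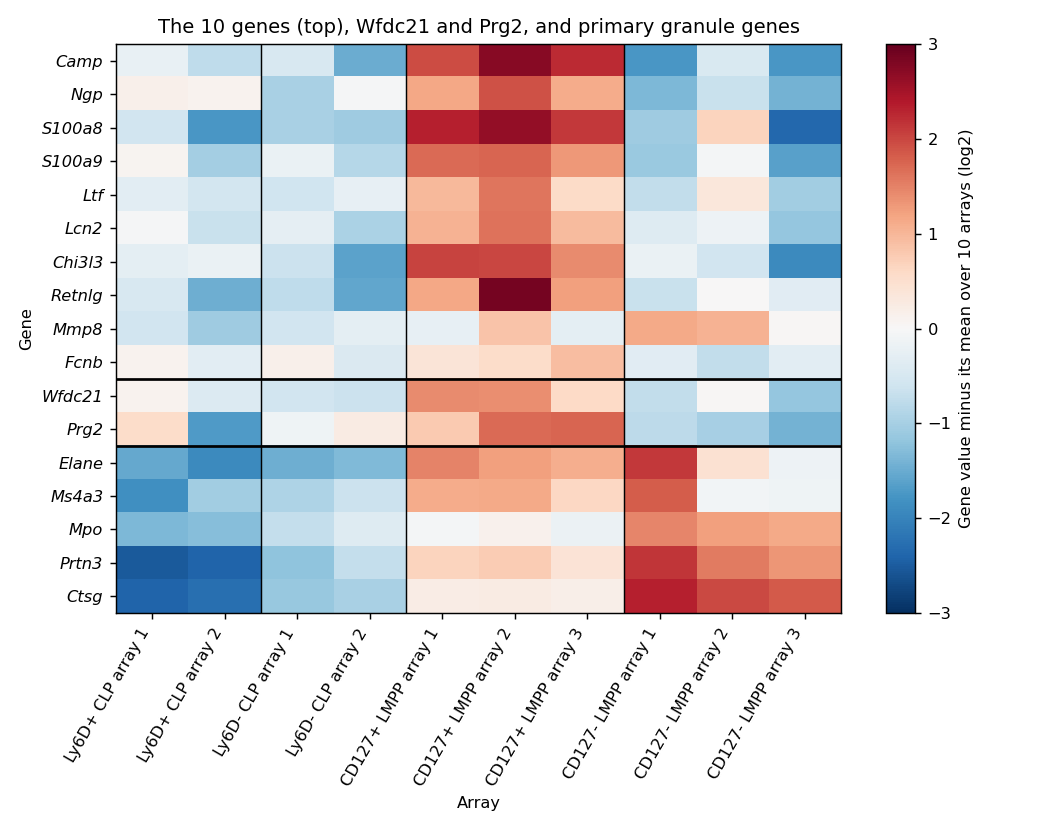
Log2 signal minus the gene's mean over the 10 arrays, as colour (red above, blue below, scale in log2), with genes down the page and the 10 arrays across, from Ly6D+ CLPs at the left to CD127- LMPPs at the right. The 10 genes are at the top, Wfdc21 and Prg2 in the middle and 5 primary granule genes at the bottom; the 3 CD127+ LMPP columns are red in each of the upper rows but that of Mmp8, while Mpo, Prtn3 and Ctsg are reddest in CD127- LMPPs.

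Single probe sets, short stretches along a gene read separately by the array, were set against these averages. Together the 10 genes had 77 probe sets. Of these, 44 had CD127+ LMPP arrays all above CD127- LMPP arrays and 1 had them all below. Over the 233753 probe sets with 1 symbol the shares were 6.13% and 6.59%. The genes were chosen by averages of these same probe sets, so the count describes the choice. All 4 probe sets of Camp and all 4 of S100a8 separated this way, with differences of 2.60 to 4.23 and 2.87 to 3.81 log2. All 4 of S100a9 did too, but their differences spanned 0.66 to 3.56 log2. Ngp had 5 of 7, Lcn2 6 of 10, Retnlg 4 of 5, Chi3l3 3 of 4, Ltf 9 of 17 and Fcnb 4 of 10. In 18 of the 77, the mean in CD127+ LMPPs was at or under the low-signal limit. Of the 12 Mmp8 probe sets, 1 was higher in CD127+ than in CD127- LMPPs, and they ranged from -1.83 to 1.03 log2.

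**Figure D3:**
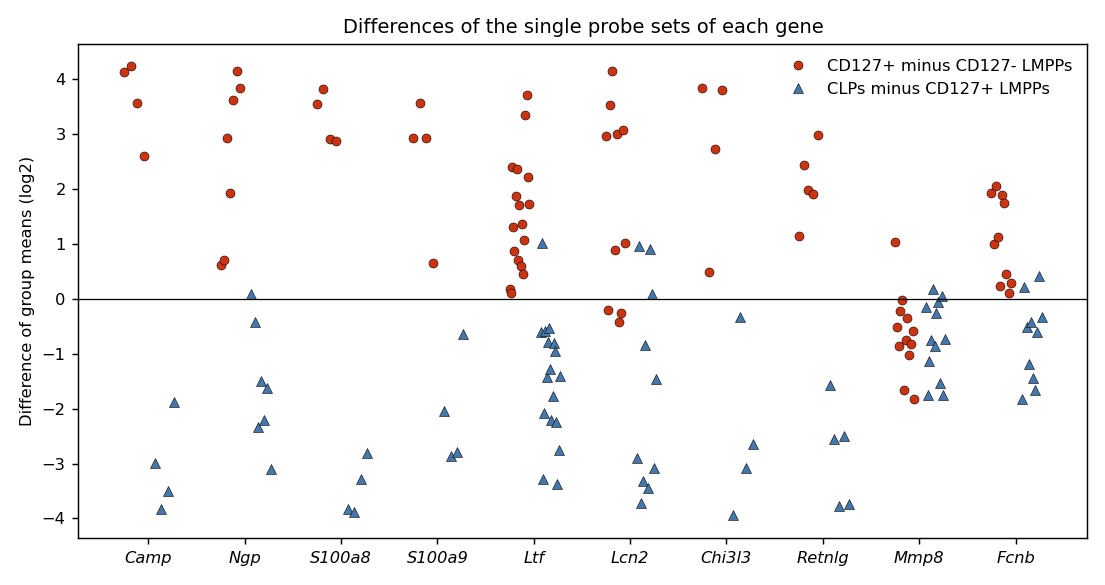
Difference of group means in log2 signal (y axis) for every probe set of the 10 genes (x axis). Circles are CD127+ minus CD127- LMPPs and triangles CLPs minus CD127+ LMPPs; all 4 circles of Camp and of S100a8 lie above 2 log2, those of Ltf run from 0.11 to 3.70, and 11 of the 12 circles of Mmp8 lie below 0.

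Whether the genes differed outside the group that had drawn attention to them was tested between CLPs and CD127- LMPPs. A batch shared by the CLP arrays, or by the LMPP arrays, could not be told apart from such a difference. Ngp was higher and Mmp8 lower in CLPs, and the other 8 genes did not pass. Ngp rose by 0.96 log2 in CLPs (SE 0.27, limma adjusted p = 0.0399), at least 1.63-fold, since the mean in CD127- LMPPs was under the low-signal limit. The measured difference was 1.27 log2 for the Ly6D+ subset alone (at least 2.03-fold, adjusted p = 0.0289) and 0.64 log2 for the Ly6D- subset (at least 1.31-fold, adjusted p = 0.283). Mmp8 fell by 1.36 log2 in CLPs (SE 0.32, adjusted p = 0.018), at least 1.73-fold. These 2 of 10 stand beside 13.4% of all genes called in either direction, 5.08% higher and 8.36% lower, so the share was near the background. The remaining adjusted p-values lay between 0.288 and 0.941, for differences from -0.73 log2 in Retnlg to 0.58 in Camp, and the median over the 10 genes was 0.15 log2 beside 0.02 over all genes. A p above the threshold does not show that levels were equal. S100a8, for one, had a difference of -0.17 log2 with an SE of 0.55, which was 0.63 log2 without array 2 and -0.89 log2 without array 3 of CD127- LMPPs.

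Both calls rested on single arrays and on the choice of probe sets. The Ngp call was lost under 9 of 18 alternative settings, with adjusted p from 0.0169 to 0.54, and among them when array 1 or array 3 of CD127- LMPPs, array 1 or array 3 of CD127+ LMPPs, array 2 of Ly6D- CLPs or either array of Ly6D+ CLPs was left out. The Mmp8 call was lost without array 1 or array 2 of CD127- LMPPs or array 2 of Ly6D+ CLPs, and with its brightest probe set alone the difference was 0.14 log2 with an adjusted p of 0.869. Without array 1 of CD127- LMPPs, or without array 2 of Ly6D+ CLPs, 0 of the 10 genes were called.

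Between Ly6D+ and Ly6D- CLPs, 0 of the 10 genes passed (limma), 0 had an unadjusted p under 0.05, and 0 passed under any of the 18 alternatives; 23 of all genes, 0.0993%, passed. The widest differences were 0.87 log2 in Chi3l3 (SE 0.48, adjusted p = 0.636) and 0.64 in Ngp (SE 0.36, adjusted p = 0.642). With 2 arrays on each side, differences of this size could not be told from the spread between arrays.

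Other genes of the neutrophil programme, on lists that hold none of the 10, were called in both directions. Of the 20 genes on the specific and gelatinase granule list, 1 rose and 3 fell in CD127+ against CD127- LMPPs, with a median difference of 0.24 log2. Over all genes, 0.881% were higher and 0.592% lower. The gene that rose was Wfdc21, named 1100001G20Rik on the array, which encodes a small secreted protein with a whey acidic protein domain. Its log2 signals were 4.56 and 4.04 in Ly6D+ CLPs, 3.87 and 3.80 in Ly6D- CLPs, 5.86, 5.85 and 5.06 in CD127+ LMPPs and 3.71, 4.49 and 3.30 in CD127- LMPPs, a difference of 1.76 log2 between the LMPP groups (SE 0.30, limma adjusted p = 0.0157). The 3 that fell were Cfp, the complement factor properdin (-1.29 log2, adjusted p = 0.00162), Hpse, heparanase (-1.26 log2, adjusted p = 0.00213), and Slpi, an inhibitor of neutrophil serine proteases (-1.21 log2, adjusted p = 0.00144). Pglyrp1 and Mmp9, contents of specific and gelatinase granules, differed by 0.55 log2 (adjusted p = 0.232) and 0.32 log2 (adjusted p = 0.575). The mean of Mmp9 was under the low-signal limit in every group, and 6 of the 20 genes were at or under it in every group. Pglyrp1, Mmp9 and other genes given below without a call were named for a role, as a list's widest difference, or after values were seen. In CLPs against CD127+ LMPPs, 6 of the 20 fell and 0 rose, with a median of -0.23 log2, beside 3.94% of all genes lower and 2.23% higher. Those that fell were Cyba, Pglyrp1, Lyz2, Cd63, Ltb4r1 and Wfdc21. The count was 3 without array 1 and 2 without array 2 of CD127+ LMPPs.

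Of 11 primary granule genes, 3 fell in CD127+ against CD127- LMPPs and 0 rose, and 6 fell in CLPs against CD127+ LMPPs. Mpo, myeloperoxidase, had log2 signals of 9.51, 9.72 and 9.40 in CD127+ LMPPs, against 11.04, 10.82 and 10.71 in CD127- LMPPs, a difference of -1.31 log2 (adjusted p = 0.00144). Ctsg, cathepsin G, had 8.51, 8.55 and 8.48 in CD127+ LMPPs, against 10.63, 10.28 and 10.13 in CD127- LMPPs, a difference of -1.83 log2 (adjusted p = 0.000165). Prtn3, proteinase 3, fell by 1.06 log2 (adjusted p = 0.0375). For these 3 genes the groups did not overlap. Elane, neutrophil elastase, did overlap, with 8.06, 7.80 and 7.67 in CD127+ LMPPs, against 8.70, 7.04 and 6.43 in CD127- LMPPs (adjusted p = 0.769).

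Among 18 transcription factors of granulopoiesis, 4 fell in CD127+ against CD127- LMPPs and 0 rose; they were Cebpa (-1.13 log2, adjusted p = 0.0194), Cebpd (-1.12, adjusted p = 0.0232, 1 probe set), Irf8 (-1.03, adjusted p = 0.0257) and Id1 (-0.71, adjusted p = 0.0447). Cebpe, which encodes C/EBP-epsilon, had log2 signals of 4.53 and 4.87 in Ly6D+ CLPs, 4.02 and 3.90 in Ly6D- CLPs, 5.0, 5.25 and 5.06 in CD127+ LMPPs and 4.60, 4.32 and 4.62 in CD127- LMPPs. Its CD127+ LMPP arrays were the highest of the 10, but the difference between the LMPP groups did not pass (0.59 log2, SE 0.15, adjusted p = 0.108). In CLPs against CD127+ LMPPs, Stat3 rose (0.68 log2, adjusted p = 0.028) and Cebpe fell (-0.77 log2, adjusted p = 0.0106). Family relatives of the 10 genes, 23 on a list that held Chi3l4, Retn and Fcna, gave 0 calls in either comparison (limma, 3 and 4 at an unadjusted p under 0.05), and 16 of the 23 were at or under the low-signal limit in every group. Between CD127+ and CD127- LMPPs the widest difference of these 23 was that of Stfa1, a stefin (0.50 log2, adjusted p = 0.666). Chi3l4 differed by 0.18 log2 (adjusted p = 0.864) and Retn by 0.40 (adjusted p = 0.445) between CD127+ and CD127- LMPPs.

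**Figure D4:**
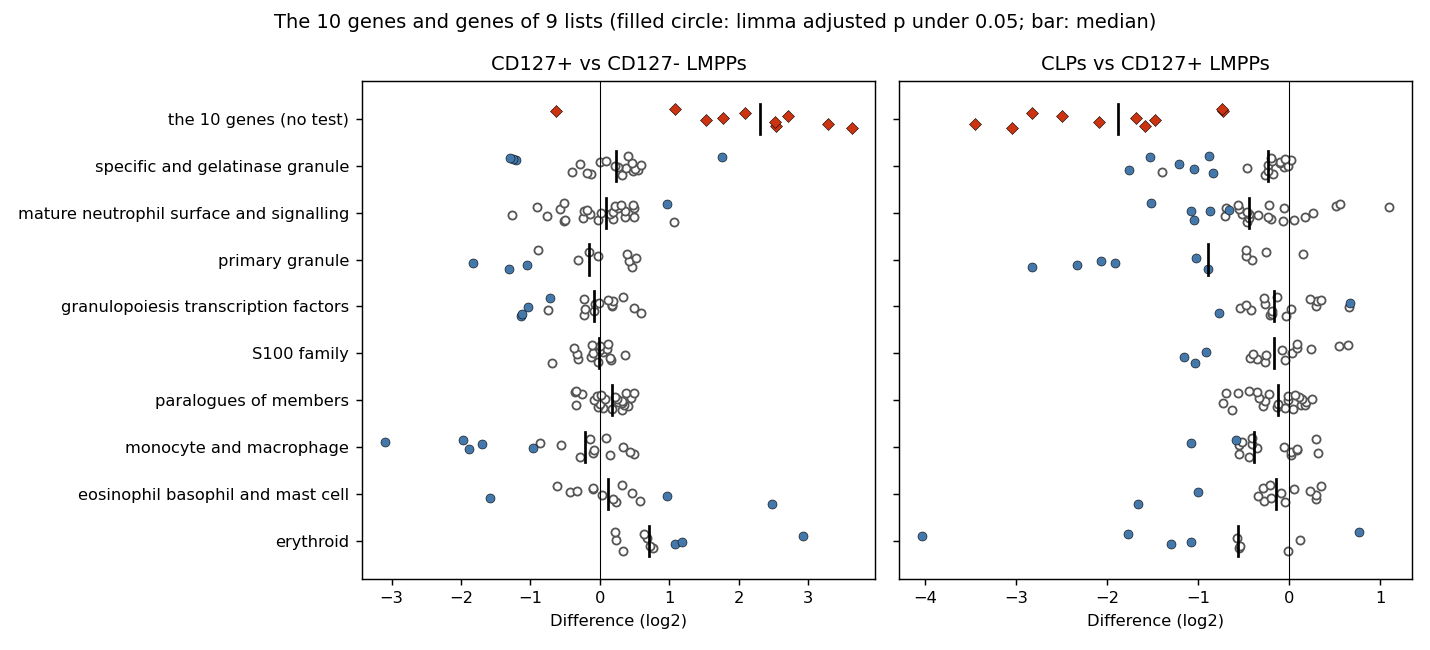
Difference in log2 signal (x axes) between CD127+ and CD127- LMPPs (left) and between CLPs and CD127+ LMPPs (right), with the 10 genes (diamonds, no test) in the top row and 9 gene lists below. Circles are genes, filled where limma's adjusted p was under 0.05, and the vertical bar is the median; the 10 genes have medians of 2.30 and -1.88 log2, while the specific and gelatinase granule list has 0.24 and -0.23.

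Mature neutrophils, and other marrow cells that could be present in a sort, were read from marker lists. Of 26 mature neutrophil surface and signalling genes, 1 rose in CD127+ against CD127- LMPPs, Il1r2, the decoy receptor for interleukin-1 (0.97 log2, adjusted p = 0.0142). Il1r2 did not peak in CD127+ LMPPs: it averaged 8.45 log2 in Ly6D+ CLPs, 8.24 in Ly6D- CLPs, 7.79 in CD127+ LMPPs and 6.82 in CD127- LMPPs. Its higher level in CLPs than in CD127+ LMPPs did not pass (0.56 log2, adjusted p = 0.0578). The count of 1 risen gene was 0 without array 2 of CD127- LMPPs or without array 1 or array 3 of CD127+ LMPPs, and 2 without array 3 of CD127- LMPPs. The list's mean level lay between 4.48 and 4.57 log2 over Ly6D+ CLP arrays, 4.37 and 4.64 over Ly6D- CLP arrays, 4.73 and 4.91 over CD127+ LMPP arrays and 4.79 and 4.94 over CD127- LMPP arrays, and 10 of its 26 genes were at or under the low-signal limit in every group. Ly6g, the surface antigen that defines mature mouse neutrophils, had log2 signals of 4.72 and 2.53 in Ly6D+ CLPs, 3.05 and 4.74 in Ly6D- CLPs, 4.36, 4.47 and 3.84 in CD127+ LMPPs and 3.16, 2.97 and 3.32 in CD127- LMPPs, from 2 probe sets. Its group means were under the low-signal limit, and it did not pass (1.07 log2, adjusted p = 0.48). Cxcr2, the chemokine receptor of mature neutrophils, had 4.87, 5.39 and 5.01 in CD127+ LMPPs, against 5.41, 5.94 and 5.47 in CD127- LMPPs (adjusted p = 0.297). In CLPs against CD127+ LMPPs, 5 of the 26 fell and 0 rose, 3 without array 1 of CD127+ LMPPs.

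Some markers of 2 other lineages rose in the same comparison. Of 10 erythroid genes, 3 rose in CD127+ against CD127- LMPPs, and their mean level was 5.65 to 6.14 log2 over CD127+ LMPP arrays against 4.99 to 5.12 over CD127- LMPP arrays; all 10 were above the low-signal limit in CD127+ LMPPs against 5 in CD127- LMPPs. Car1, carbonic anhydrase 1, had 8.93, 8.06 and 8.97 in CD127+ LMPPs, against 5.70, 5.86 and 5.63 in CD127- LMPPs (2.93 log2, adjusted p = 0.000274). The others that rose were Ermap, an erythroid membrane protein (1.18 log2, adjusted p = 0.00477), and Rhag, an ammonium channel of red cells (1.08 log2, adjusted p = 0.0173). Of 14 eosinophil, basophil and mast cell genes, 2 rose and 1 fell, 8 were at or under the low-signal limit in every group, and their mean level was 3.84 to 4.12 log2 over CD127+ LMPP arrays against 3.81 to 3.95 over CD127- LMPP arrays. Prg2, eosinophil major basic protein, had 6.18, 7.10 and 7.16 in CD127+ LMPPs, against 4.62, 4.41 and 3.99 in CD127- LMPPs (2.48 log2, SE 0.47, adjusted p = 0.0264). Cpa3, mast cell carboxypeptidase, also rose (0.97 log2, adjusted p = 0.0307), and Mcpt8, a basophil protease, fell (-1.59 log2, adjusted p = 0.000396). Their part in the levels of the granule genes was not tested.

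Of 16 monocyte and macrophage genes, 5 fell in CD127+ against CD127- LMPPs and 0 rose, among them Ms4a6c (-1.97 log2, adjusted p = 3.22e-05), Ccr2, a chemokine receptor of monocytes (-1.69 log2, adjusted p = 0.00408), Csf1r, the receptor for macrophage colony-stimulating factor (-1.89 log2, adjusted p = 0.000154), and F13a1, coagulation factor XIII A (-3.09 log2, adjusted p = 0.000168). Their mean level was 5.0 to 5.07 log2 over CD127+ LMPP arrays against 5.57 to 5.85 over CD127- LMPP arrays. The mature B and plasma cell list (10 genes), the T and NK cell list (11) and the platelet and megakaryocyte list (10) gave 0 calls between the LMPP groups (limma, 1, 3 and 3 at an unadjusted p under 0.05). Their widest differences were those of Igj (0.70 log2, adjusted p = 0.385), Nkg7 (0.52 log2, adjusted p = 0.0916) and Pf4 (0.89 log2, adjusted p = 0.296).

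The genes most like the mean of the 10 across arrays, of 6906 others that ranged by at least 1 log2, were found by Pearson correlation over the 10 arrays, given as a description, since the points share their arrays and the correlation rests largely on the gap between CD127+ LMPPs and the rest. Wfdc21 came first with r = 0.964. Aldh1a1, a retinaldehyde dehydrogenase, followed with r = 0.922 and log2 signals of 4.02 and 4.05 in Ly6D+ CLPs, 4.49 and 4.34 in Ly6D- CLPs, 5.32, 5.41 and 5.11 in CD127+ LMPPs and 4.37, 4.42 and 4.19 in CD127- LMPPs. The next were 2810403D21Rik (0.890), Tspan8 (0.889), a tetraspanin, 4930515G16Rik (0.887) and Fam55b (0.878). The mean levels of Tspan8, 4930515G16Rik and Fam55b were under the low-signal limit in every group.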

How the data were processed

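Total RNA from the sorted cells had been extracted with Trizol and labelled with biotin for Affymetrix arrays, per the labels' protocols. The log2 signals of 269751 probe sets on 10 arrays were made by the authors before deposit with Affymetrix Power Tools, per the submitters' processing notes. No source used here states the log base, which was inferred from values between 0.20 and 14.79, nor the summary method, normalization or build. The number of arrays limits the precision.

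Array quartiles lay within 0.13 log2 of each other, so the values were used as deposited. Probe sets with 1 symbol (233753) were averaged into 23152 genes; those with several symbols (5106) or none (30892) were left out. All 4 groups were fitted with limma 3.58.1 in R 4.3.3, with CLPs as the equal mean of their 2 groups, and p-values were adjusted by Benjamini-Hochberg over all genes at 0.05. The fit was run on simulated data for CD127+ against CD127- LMPPs only, so the comparisons with CLPs were not covered by it. Errors of differences are limma standard errors (SE). Figures used Python 3.11.15 and matplotlib 3.10.9.

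The 10 genes and all gene lists were chosen with earlier results of these data known. Named genes are the 10, up to 4 genes past the threshold from each list in CD127+ against CD127- LMPPs, or else its largest difference, 5 sort markers, and the 6 genes most like the mean of the 10; others, Stat3 among them, were named for their role or after their values were seen. Mmp9, Mmp25, Stfa1 and Nkg7 stand on more than 1 list. Replicate numbers were not used to pair the samples in the main fit: deviations of same-numbered arrays correlated by -0.04 to 0.13. With so few arrays per group, this cannot exclude that they were paired. The 18 alternatives were median centring, quantile normalization, the brightest or the median probe set of a gene, leaving out dim genes (13342 genes stayed), trended and robust variances, only the compared arrays, the replicate block and each array left out.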

Additional observations from a re-analysis of the deposited data

How the results depend on the processing

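In all, 9 of the 10 genes had all CD127+ LMPP arrays above all others with any 1 array left out (9 to 9), a count that leaving out an array cannot lower. With only the brightest probe set, 6 did. All 10 kept the sign of their difference between CD127+ and CD127- LMPPs under the 18 alternatives. The genes were chosen by their levels in CD127+ LMPPs, so this describes the choice. Several alternatives also cannot change that difference, such as trended and robust variances or leaving out a CLP array. Between CLPs and CD127+ LMPPs all kept the sign except Mmp8 (0.17 log2) and Fcnb (0.22 log2), each with the brightest probe set. For CLPs against CD127- LMPPs the count of the 10 called was 2, 1 with the median of the probe sets, 1 with the brightest probe set, and 0 to 2 with 1 array left out; with the brightest probe set Mmp8 turned to 0.14 log2 and Fcnb passed (1.22 log2). For Ly6D+ against Ly6D- CLPs the count stayed at 0 (0 to 0). The specific and gelatinase granule list, 4 between CD127+ and CD127- LMPPs, gave 2 with the median and 2 with the brightest probe set and 3 to 4 with 1 array left out, and its 6 between CLPs and CD127+ LMPPs became 2 to 7. The mature neutrophil list, 1 between CD127+ and CD127- LMPPs, gave 0 with the median, 0 with the brightest probe set, 2 with trended and robust variances, 2 with only the compared arrays and 0 to 2 with 1 array left out. Its 5 between CLPs and CD127+ LMPPs became 8 without dim genes, 8 with trended and robust variances and 3 to 7 with 1 array left out. The causes were not tested.

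Over all genes, the 341 called between CD127+ and CD127- LMPPs became 160 with the median, 88 with the brightest probe set, 523 without dim genes, 581 with trended and robust variances and 165 to 340 with 1 array left out. The 1430 between CLPs and CD127+ LMPPs became 641 with the median, 2432 without dim genes, 2415 with trended and robust variances, 872 with only the compared arrays and 586 to 1327 with 1 array left out. The 3111 between CLPs and CD127- LMPPs became 1822 with the median and 1763 to 2952 with 1 array left out. The 23 between Ly6D+ and Ly6D- CLPs became 11 with the median, 11 with the brightest probe set, 67 without dim genes, 78 with trended and robust variances, 1 with only the compared arrays and 6 to 27 with 1 array left out. With the replicate number as a block, the counts over all genes were 256, 755, 2468 and 8 in the same order; of the 10 genes 2 and 0 were called in the 2 tested comparisons, and the 2 lists gave 4, 6, 1 and 5, as without the block. Low signal limits Ngp, Ltf, Lcn2, Chi3l3, Retnlg, Mmp8 and Fcnb, each with 1 to 3 group means at or under the low-signal limit.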
